A study of Mus musculus with 6 samples.

Results

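Acyl-CoA thioesterases cut the thioester bond of fatty acyl-CoA and release free fatty acid and coenzyme A, and their family members work in the cytosol, the mitochondrial matrix or the peroxisome. Uncoupling proteins are carriers of the inner mitochondrial membrane. *Ucp1* produces heat in brown fat by letting protons back into the matrix, while the roles of *Ucp2* and *Ucp3* in the heart are less settled and have been linked to fatty acid handling and to the control of reactive oxygen species. Several of these genes, *Acot1* and *Ucp3* among them, are known targets of PPARα, the nuclear receptor that fatty acids activate. The genes described here are the thioesterases *Acot1*, *Acot2*, *Acot7*, *Acot9*, *Acot11* and *Acot13* and the uncoupling proteins *Ucp2* and *Ucp3*. They were chosen by name, with earlier results of these data known, and make up 8 of the 54232 genes in the count files. All 8 passed the filter on low counts, which left 14133 genes tested.

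RNA was sequenced from the heart ventricle of 6 WT C57BL/6J mice. All had been fed a western diet (WD) for 15 weeks, and then 3 mice received Tributyrin, a triglyceride from which butyrate is released, at 5 g/kg of body weight by needle feeding for 3 weeks (WD + Tributyrin). The other 3 mice received vehicle, which the sample labels name PBS (WD). Each library is one mouse by its label, and the sources used here do not give their age. The comparison asked which ventricular transcripts differ with Tributyrin on top of WD, and it holds no mice on normal chow, so it gives no effect of WD itself. The libraries held 20369746 to 32734485 counts on genes, and mitochondrial transcripts took 23.6% to 26.5% of them with vehicle and 25.9% to 28.8% with Tributyrin. Ventricular cardiomyocyte markers were abundant in every library, with a summed level of 77346 to 79146 CPM (counts scaled to library size) with vehicle and 73510 to 78220 with Tributyrin. Of the 12 markers, 9 were higher with Tributyrin, and 5 had an unadjusted p under 0.05 by edgeR (*Tnni3*, *Tnnt2* and *Pln* higher, *Nppb* and *Actc1* lower). These directions use edgeR's TMM scaling, while the summed level is scaled to library size alone, so the scales differ. Atrial markers were not even. Their summed level was 68.5 to 200.6 CPM with vehicle and 33 to 68.8 with Tributyrin, and none of the 6 tested atrial markers was higher with Tributyrin, while 5 were lower with an unadjusted p under 0.05. The atrial light chain *Myl7* had 207, 525 and 172 counts in WD + Tributyrin mice 1, 2 and 3. Vehicle mice 1 and 2 stood apart, with 1680 and 1913 counts of *Myl7* against 89 in vehicle mouse 3. *Sln*, *Myl4*, *Mybphl* and *Dkk3* were also higher in vehicle mice 1 and 2 than in vehicle mouse 3. *Nppa* went the other way, with 533 and 625 counts in vehicle mice 1 and 2 against 842 in vehicle mouse 3. Without these 2 libraries, which leaves 1 vehicle mouse whose spread is taken from the other group, the log2 fold change was 0.59 for *Acot1*, 0.18 for *Acot2*, 0.20 for *Acot13*, 0.43 for *Ucp3*, 0.06 for *Ucp2*, -0.01 for *Acot7*, -0.04 for *Acot9* and -0.33 for *Acot11*. By the edgeR test described below, 0 of all genes were past a false discovery rate of 10% without them, and 396 had an unadjusted p under 0.05.

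*Acot1* had the largest difference of the 8 genes. Its level was 1.37-fold higher with Tributyrin (95% interval 1.09 to 1.75), which did not pass correction over all genes. *Acot2* and *Acot13*, the thioesterases with the highest levels, were 1.11-fold and 1.10-fold higher, and *Ucp3* was 1.15-fold higher, all with intervals that include no difference. *Acot11* was 0.884 times its vehicle level, and *Acot7*, *Acot9* and *Ucp2* were within 4% of theirs. By the quasi-likelihood test of edgeR, adjusted after Benjamini and Hochberg, 0 of the 8 genes passed a false discovery rate (FDR) of 10% or 5%, and the adjusted p was 0.999 for each of them. No gene of all those tested passed either, so the background share was 0%. An unadjusted p under 0.05 was reached by 1 of the 8 genes (*Acot1*), against 4.25% of all genes tested (600 of 14133, with 1.97% higher and 2.28% lower). By limma-voom 605 genes had an unadjusted p under 0.05 and 0 passed 10%, and by DESeq2 460 had an unadjusted p under 0.05 and 11 passed 10%, with none of the 8 among them. None of the 8 genes had groups whose normalized counts did not overlap, against 8.91% of all genes tested (4.26% higher and 4.65% lower). Of the 8, 4 were higher and 4 lower with Tributyrin, and their median log2 fold change was 0.06 against -0.0013 over all genes.

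**Figure D1:**
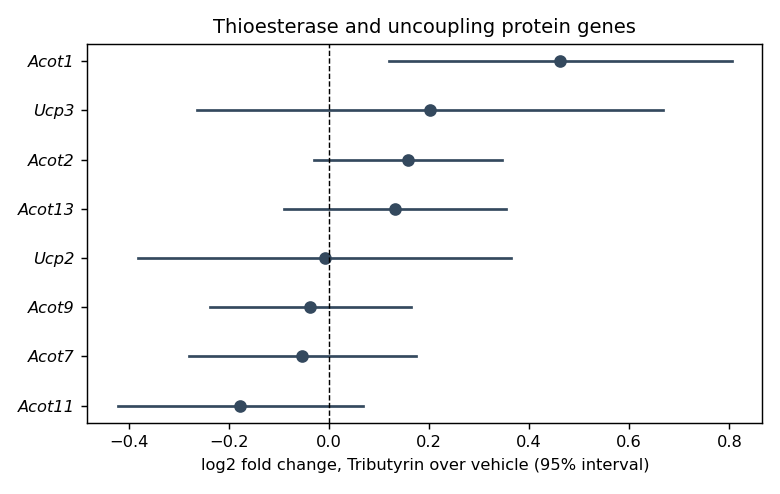
Log2 fold change of each thioesterase and uncoupling protein gene, WD + Tributyrin over WD (x axis), with the 95% interval from edgeR's quasi-likelihood fit (n = 3 mice per group). The interval of *Acot1*, 0.12 to 0.80 before any adjustment, is the only one of the 8 that does not include 0.

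The genes lay far apart in level. Per kb of exon, *Acot13* was highest with a mean of 7155 normalized counts per kb over the 6 mice (range 6514 to 8734). *Acot2* followed with 1452 (1309 to 1691). The divisor was the length of all annotated exons of a gene together, which need not be that of the transcript expressed. It was 6989 bases for *Ucp2* and 3135 for *Ucp3*, with coding sequences of 927 and 924 bases. Ranks on this scale therefore depend on the annotation. *Acot13* encodes Them2, a mitochondria-associated long-chain thioesterase, and *Acot2* encodes the long-chain thioesterase of the mitochondrial matrix. *Acot7* followed with 593 (527 to 684) and *Ucp3* with 572 (426 to 790). *Ucp2* had 228 (158 to 264), *Acot9* 226 (209 to 241), *Acot1* 161 (124 to 233) and *Acot11* 105 (88.0 to 124.1). The ranges of neighbours in this order did not overlap between *Acot13* and *Acot2*, between *Acot2* and *Acot7* or between *Ucp3* and *Ucp2*. Before division by length, the normalized counts of *Ucp3* (1335 to 2478) and *Ucp2* (1102 to 1845) did overlap. The ranges of *Acot7* and *Ucp3*, and of each neighbouring pair from *Ucp2* down to *Acot11*, overlapped per kb of exon. Dividing the same counts by the transcript positions that no other gene shares, the right length for a count of uniquely placed reads, gave 2054 per kb for *Acot2*, 201 for *Acot1* and 267 for *Acot9*, with *Acot9* then above *Ucp2* in its mean. On this scale *Acot1* ranged from 155 to 291 and *Acot11* from 86.1 to 121.4, which did not overlap, while per kb of exon the lowest *Acot1* value, 123.95, was just under the highest of *Acot11*, 124.11.

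**Figure D2:**
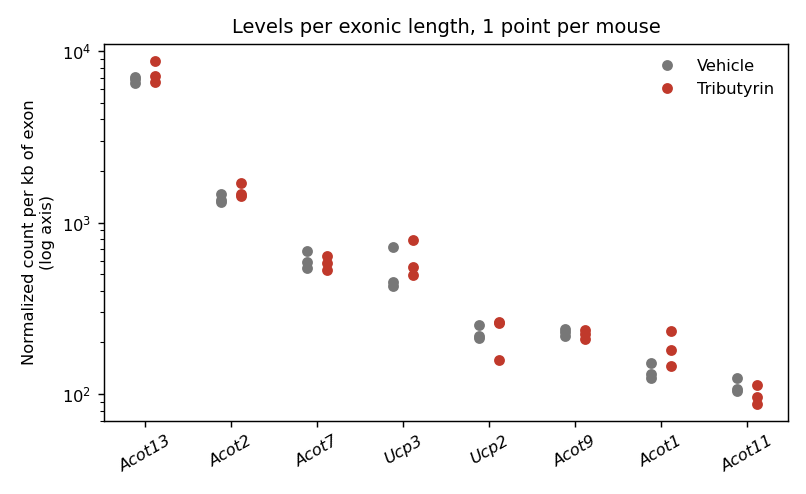
Normalized counts per kb of exon (log y axis) of the 8 genes, 1 point per mouse, with WD mice in grey and WD + Tributyrin mice in red. *Acot13* sits above every other gene in all 6 mice, from 6514 to 8734, and *Acot11* has the lowest mean, 105.

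*Acot1* and *Acot2* are neighbours and near copies, so how far reads tell them apart bears on every value of either. In GRCm38 with GENCODE M21, *Acot2* (ENSMUSG00000021226) lies at chr12:83987861-83993873 and *Acot1* (ENSMUSG00000072949) at chr12:84009490-84018371, both on the plus strand and 15616 bases apart. *Acot4* begins 20007 bases further on. Over 1236 aligned bases their coding sequences were 95.3% identical, with a longest identical run of 273 bases. The coding sequence of *Acot2* has 453 codons against 419 in *Acot1*, and the alignment begins only at base 124 of the *Acot2* coding sequence. The *Acot2* protein is known to carry a mitochondrial leader. The libraries were read in single 50-base reads. Of all 50-base words in the transcripts, 19.2% of those of *Acot1* and 27.7% of those of *Acot2* also occur in another gene, so that reads from these positions cannot be assigned to one gene. Words shared between *Acot1* and *Acot2* made up 13.6% of the *Acot1* words and 24.6% of the *Acot2* words. Below are 60-base coding stretches from the plus strand of GRCm38, shown because a read from the first kind cannot be assigned and a read from the second kind can. The stretch without any difference lies at chr12:84009703-84009762 in *Acot1* and at chr12:83988218-83988277 in *Acot2*, and it holds no capitals because no base differs.
Acot1: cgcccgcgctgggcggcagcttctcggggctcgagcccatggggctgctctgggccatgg
Acot2: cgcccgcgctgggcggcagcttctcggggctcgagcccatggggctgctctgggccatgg
The stretch with the most differences, 13 of 60 bases, lies at chr12:84016942-84017001 in *Acot1* and at chr12:83992664-83992723 in *Acot2*, and capitals mark the bases that differ.
Acot1: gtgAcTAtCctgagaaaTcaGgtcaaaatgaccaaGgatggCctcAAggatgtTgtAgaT
Acot2: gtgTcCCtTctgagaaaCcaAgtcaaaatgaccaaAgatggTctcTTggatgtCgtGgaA

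The start regions of these neighbours are printed because *Acot1* and *Acot2* levels varied together across mice (below). The 250 bases before each RefSeq start (GRCm38.p6, plus strand) lie at chr12:84009252-84009501 for *Acot1* and at chr12:83987611-83987860 for *Acot2*. Capitals mark motifs that a search of both strands found. The motifs marked are CCAAT, the motif of promoters bound by Sp1 with the letters GGGCGG, the TATAAA element of core promoters and the nuclear receptor element with the letters AGGTCA.
Acot1: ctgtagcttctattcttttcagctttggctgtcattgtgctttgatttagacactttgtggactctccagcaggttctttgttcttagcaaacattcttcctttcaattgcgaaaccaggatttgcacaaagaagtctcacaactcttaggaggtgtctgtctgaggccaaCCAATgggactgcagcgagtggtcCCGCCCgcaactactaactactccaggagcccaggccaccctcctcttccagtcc
Acot2: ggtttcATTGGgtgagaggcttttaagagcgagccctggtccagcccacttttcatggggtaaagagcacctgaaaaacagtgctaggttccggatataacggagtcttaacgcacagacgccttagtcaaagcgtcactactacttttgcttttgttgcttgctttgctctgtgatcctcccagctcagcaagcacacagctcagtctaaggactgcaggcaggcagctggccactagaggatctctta
The *Acot1* window holds CCAAT 79 bases before the start and the reverse complement of GGGCGG 55 bases before it. The *Acot2* window holds the reverse complement of CCAAT 244 bases before the start. Of 32851 windows of this length over all genes, 33.85% hold CCAAT, 32.74% GGGCGG and 12.37% TATAAA on either strand, so such matches are common. The direct repeat of AGGTCA with 1 base between its copies, the textbook element of PPAR and RXR pairs, was also searched (each copy is itself a match of AGGTCA), as was the E-box (CACGTG), which 6.02% of all windows hold. The letters of the repeat are in none of the windows of the 7 genes found in the table (*Acot13* was not matched) and in 0.03% of all windows. Of the other genes, *Acot9* holds TATAAA, *Acot9* and *Acot11* hold CCAAT, *Acot7*, *Acot9* and *Acot11* hold GGGCGG and *Acot11* holds the E-box.

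*Acot1* encodes the cytosolic long-chain thioesterase. Its normalized counts were 598, 514 and 486 in WD mice 1, 2 and 3 and 708, 913 and 575 in WD + Tributyrin mice 1, 2 and 3. The groups overlapped by one mouse on each side, since WD + Tributyrin mouse 3 was below WD mouse 1, and WD + Tributyrin mouse 2 was higher than every other mouse. The means were 533 ± 58.2 with vehicle and 732 ± 170.3 with Tributyrin (SD, n = 3 each), a log2 fold change of 0.46 (SE 0.15). In edgeR's quasi-likelihood test the unadjusted p was 0.0129, rank 148 of 14133 genes, and the Benjamini-Hochberg adjusted p was 0.999. The deposited counts behind it ranged from 391 to 999 per library, for which counting error alone is at most 5.06% of a value. WD + Tributyrin mouse 2 carried much of the difference, and without it the log2 fold change was 0.27 (unadjusted p = 0.0593 by edgeR). Without the filter on low counts, where 25581 genes were tested and the prior on the spread between mice became infinitely strong, *Acot1* passed with an adjusted p of 0.00421 by the same edgeR test and Benjamini-Hochberg adjustment. Its adjusted p ranged from 0.00421 to 0.9999 over all alternatives, and it was past 10% only in that one.

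*Acot2* had 3213, 2874 and 2959 normalized counts in the WD mice and 3238, 3712 and 3129 in the WD + Tributyrin mice. As with *Acot1*, WD + Tributyrin mouse 2 was the highest, and the other mice of both groups lay close together. The means were 3016 ± 176 and 3360.0 ± 310.01 (SD, n = 3 each), a log2 fold change of 0.16 (SE 0.085, unadjusted p = 0.0918 by edgeR), or 0.08 without WD + Tributyrin mouse 2. With the *Acot1* and *Acot2* counts summed before the fit, the log2 fold change was 0.21 (SE 0.093, unadjusted p = 0.050 by edgeR). Reads left uncounted because they match both genes are missing from this sum as well. Summing *Acot1* to *Acot6* gave 0.20 (SE 0.094). Across the 6 mice, Pearson's r between the log2 CPM of *Acot1* and *Acot2* was 0.96 (exact permutation p = 0.00556, adjusted 0.156 over the 28 pairs among the 8 genes), and Spearman's rho was 0.94 (exact permutation p = 0.0167, adjusted 0.311). Leaving out the 2 mice farthest from the median of *Acot1* gave r = 0.88, and r was 0.93 for deviations from the group means. Each point of this correlation is 1 library read for both genes.

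*Acot1* made up a small part of the counts of this pair. Its share of *Acot1* and *Acot2* counts was 15.7%, 15.2% and 14.1% in the WD mice and 17.9%, 19.7% and 15.5% in the WD + Tributyrin mice. The shares of WD + Tributyrin mice 1 and 2 were above all WD mice and that of mouse 3 was inside their range. The Wilson 95% interval, which covers counting error only, ran from 16.8% to 19.1% in WD + Tributyrin mouse 1 and from 14.5% to 16.9% in WD mouse 1. The mean was 15.0% ± 0.81 with vehicle and 17.7% ± 2.12 with Tributyrin (SD, n = 3 each), a difference of 2.74 percentage points (SE 1.31), which was 1.74 without WD + Tributyrin mouse 2 and 3.85 without WD + Tributyrin mouse 3. With counts divided by exonic length the difference was 1.79 percentage points. The two-sided exact permutation p was 0.2 (adjusted 0.4 over the 2 shares tested), and 3 mice against 3 cannot give less than 0.1.

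**Figure D3:**
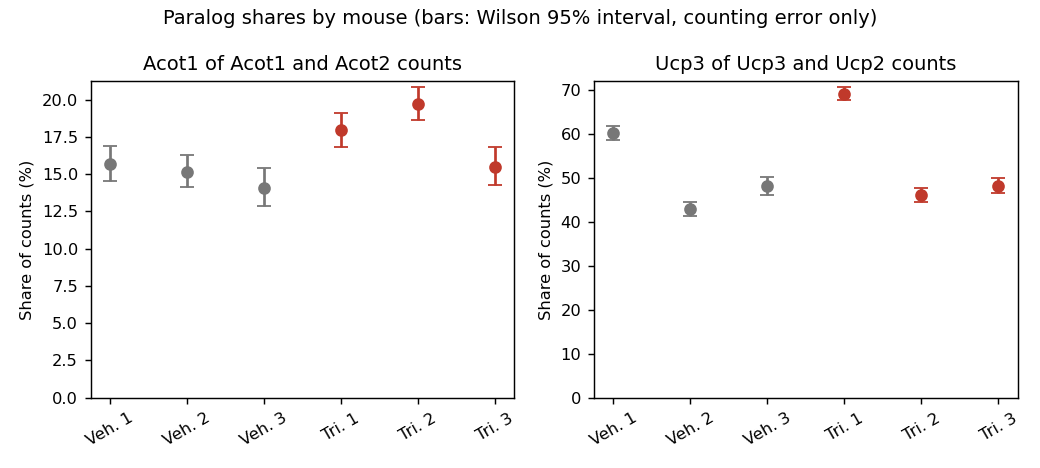
Share of *Acot1* in the counts of *Acot1* and *Acot2* (left) and of *Ucp3* in the counts of *Ucp3* and *Ucp2* (right), in percent, for each mouse. Bars are Wilson 95% intervals and cover counting error only. The *Acot1* shares run from 14.1% to 19.7%, and the *Ucp3* shares are highest in WD + Tributyrin mouse 1 (69.2%) and WD mouse 1 (60.2%).

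*Acot13* (ENSMUSG00000006717, chr13:24817948-24831540, minus strand) had 5137, 5256 and 4846 normalized counts in the WD mice and 5316, 4887 and 6498 in the WD + Tributyrin mice. WD + Tributyrin mouse 3 was the highest, and the other 5 mice lay between 4846 and 5316. The log2 fold change was 0.13 (SE 0.10, unadjusted p = 0.213 by edgeR), and without WD + Tributyrin mouse 3 it was 0.01. *Acot13* shared no 50-base word with another gene.

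*Acot7* (ENSMUSG00000028937, chr4:152178134-152271855, plus strand) encodes a cytosolic thioesterase best known from the brain. Its normalized counts were 1152, 1452 and 1242 with vehicle and 1238, 1119 and 1356 with Tributyrin, and the groups overlapped throughout. The log2 fold change was -0.05 (95% interval -0.28 to 0.17, unadjusted p = 0.616 by edgeR), and the sign turned when either vehicle mouse 2 or WD + Tributyrin mouse 2 was left out (0.05 and 0.01). Markers of nerve and Schwann cells, other cells in which *Acot7* could be read, had a summed level of 37.1 to 42.3 CPM with vehicle and 31.4 to 43.1 with Tributyrin.

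*Acot9* (ENSMUSG00000025287, chrX:155262443-155297654, plus strand), a mitochondrial thioesterase, varied least of the 8 genes. Its normalized counts were 493, 547 and 521 in the WD mice and 475, 512 and 536 in the WD + Tributyrin mice. The coefficient of variation (CV) over all 6 mice was 5.23%, while counting error alone reached 4.89% in the shallowest library. The log2 fold change was -0.04 (95% interval -0.24 to 0.16, unadjusted p = 0.693 by edgeR). Of its 50-base words 15.2% are shared, all with *Acot10*, which had 4 counts in all libraries together. *Acot9* is X-linked, and the libraries did not differ in sex by the Y-linked *Ddx3y* (1571 to 2559 counts) and by *Xist* (at most 6 counts).

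*Acot11* (ENSMUSG00000034853, chr4:106744555-106804998, minus strand), known as Them1 and abundant in brown fat, was the gene with the lowest ratio. Its normalized counts were 633, 645 and 752 with vehicle and 533, 580.2 and 681 with Tributyrin. WD + Tributyrin mice 1 and 2 were below all WD mice, and mouse 3 was above WD mice 1 and 2. The means were 677 ± 65.3 and 598 ± 75.8 (SD, n = 3 each), a log2 fold change of -0.18 (SE 0.11, unadjusted p = 0.138 by edgeR), with values from -0.27 to -0.09 when leaving out 1 mouse. Of its exonic bases 1263 lie opposite exons of *Fam151a*, which had at most 4 counts in any library. Fat was scarce in these libraries. *Adipoq*, which defines adipocytes, had at most 16 counts, and *Elovl3* and *Ucp1* had 0 in all 6. The summed level of the 10 adipocyte markers was 42.8 to 50.7 CPM with vehicle and 38.5 to 49.98 with Tributyrin, most of it from *Cidea* and *Prdm16*. Vehicle mouse 2 and WD + Tributyrin mouse 2 had the most *Adipoq* (15 and 16 counts), and without both of them the log2 fold change of *Acot11* was -0.19, while that of *Acot1* was 0.24 (unadjusted p = 0.143 by edgeR), that of *Acot2* 0.04 (unadjusted p = 0.605 by edgeR) and that of *Acot13* 0.24 (unadjusted p = 0.0510 by edgeR).

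**Figure D4:**
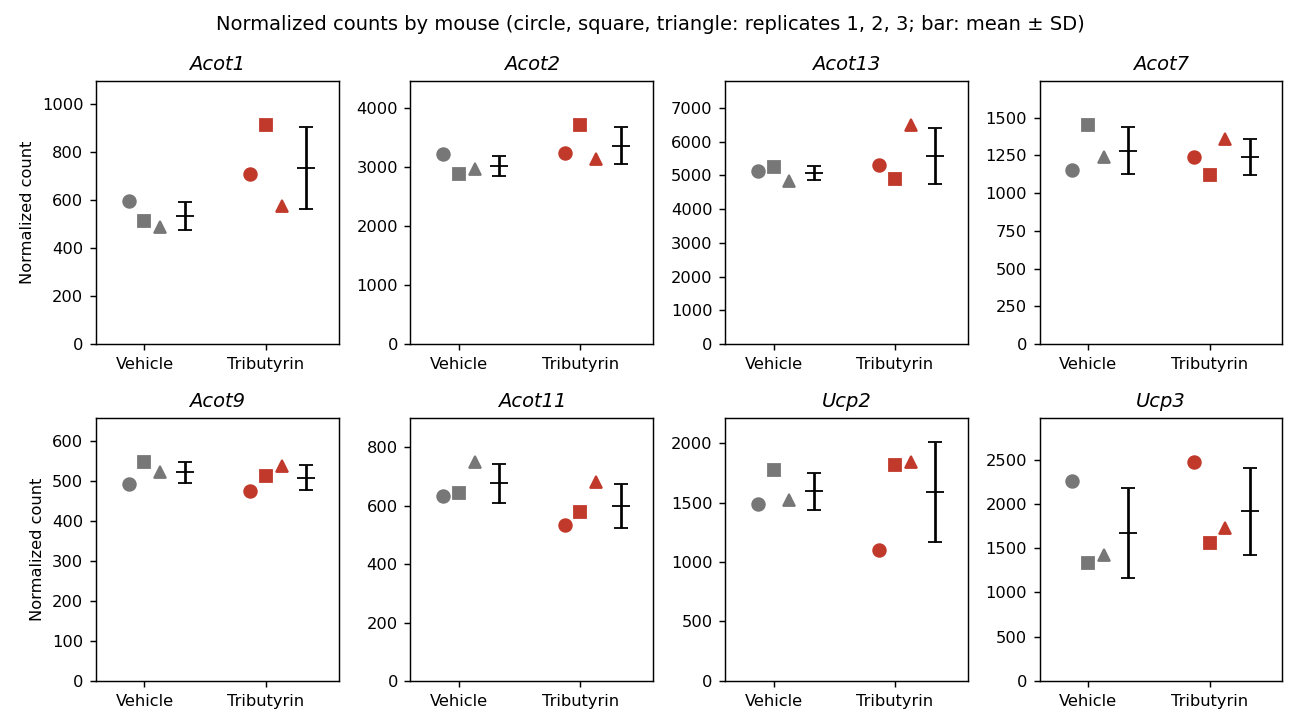
Normalized counts of each of the 8 genes (y axis, from 0) by group (x axis), with circle, square and triangle for mice 1, 2 and 3 and a bar for the mean ± SD. WD + Tributyrin mouse 2 is the highest for *Acot1* (913) and *Acot2* (3712), and mouse 1 of each group is the highest of its group for *Ucp3* (2256 and 2478).

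*Ucp2* and *Ucp3* also lie side by side, at chr7:100493337-100502020 (ENSMUSG00000033685) and chr7:100472990-100486432 (ENSMUSG00000032942), on the plus strand with 6904 bases between them. Their coding sequences were 75.4% identical over 915 aligned bases with a longest identical run of 24 bases. No 50-base word was shared, so unlike *Acot1* and *Acot2* these genes have no positions whose reads match both. Their most alike 60-base coding stretch, at chr7:100497230-100497289 in *Ucp2* and chr7:100480209-100480268 in *Ucp3*, is printed to show this, with the 5 differing bases in capitals.
Ucp2: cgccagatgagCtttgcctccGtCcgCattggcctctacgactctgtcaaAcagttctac
Ucp3: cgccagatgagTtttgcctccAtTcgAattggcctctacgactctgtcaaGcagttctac
On the opposite strand, *Ucp2* shares 305 exonic bases with *Dnajb13*, which had at most 9 counts per library. The 250 bases before the RefSeq starts lie at chr7:100493108-100493357 for *Ucp2* and chr7:100472741-100472990 for *Ucp3*, and are shown as for the *Acot* neighbours. Capitals mark the same motifs as above.
Ucp2: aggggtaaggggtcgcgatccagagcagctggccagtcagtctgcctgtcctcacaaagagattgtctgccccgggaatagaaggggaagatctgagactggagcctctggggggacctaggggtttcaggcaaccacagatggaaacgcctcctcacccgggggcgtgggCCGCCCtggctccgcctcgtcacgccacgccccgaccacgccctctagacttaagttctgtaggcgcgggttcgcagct
Ucp3: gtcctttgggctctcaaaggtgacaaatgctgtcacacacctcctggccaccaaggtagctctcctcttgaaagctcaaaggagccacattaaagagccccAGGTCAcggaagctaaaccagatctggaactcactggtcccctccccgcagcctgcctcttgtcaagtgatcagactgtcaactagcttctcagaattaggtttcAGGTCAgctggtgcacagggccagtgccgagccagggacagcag
The *Ucp3* window holds AGGTCA on the sense strand at 149 and at 44 bases before the start. At least 2 such matches are found in 1.36% of all windows and at least 1 in 14.02%. The *Ucp2* window holds no AGGTCA, and it has the reverse complement of GGGCGG 79 bases before the start. Its GC content was 63.6% against 54.8% for *Ucp3* and a median of 52.4% over all windows.

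*Ucp3* is the uncoupling protein of heart and skeletal muscle. Its normalized counts were 2256, 1335 and 1418 in the WD mice and 2478, 1553 and 1724 in the WD + Tributyrin mice. Mouse 1 of each group was far above the other mice of its group, and the groups overlapped. The means were 1669 ± 509 and 1918 ± 492 (SD, n = 3 each), a log2 fold change of 0.20 (SE 0.21, 95% interval -0.26 to 0.67, unadjusted p = 0.356 by edgeR). The CV within groups was 30.5% and 25.6%, while counting error was at most 2.96%, so the spread between mice, not depth, set the width of this interval. The log2 fold change was 0.49 without vehicle mouse 1 and -0.02 without WD + Tributyrin mouse 1. The 10 skeletal muscle markers summed to 1486 to 2471 CPM with vehicle and 1163 to 1621 with Tributyrin. Most of this came from *Ckm* and *Acta1* (2648 to 39556 counts), which the heart also expresses, while the fiber genes *Myh1*, *Myh2* and *Myh4* had at most 3 counts in any library, and the part of these markers in the results was not tested.

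*Ucp2*, which is expressed in many cell types and strongly in macrophages, had 1491, 1774 and 1518 normalized counts in the WD mice and 1102, 1815 and 1845 in the WD + Tributyrin mice. WD + Tributyrin mouse 1, the mouse with the most *Ucp3*, had the least *Ucp2*. The means were 1594 ± 156 and 1587 ± 421 (SD, n = 3 each), a log2 fold change of -0.01 (95% interval -0.38 to 0.36, unadjusted p = 0.962 by edgeR). Without WD + Tributyrin mouse 1 it was 0.20. The 12 macrophage and leukocyte markers summed to 254 to 309 CPM with vehicle and 244 to 304 with Tributyrin. In bulk tissue, fewer cells of a type and less RNA per cell cannot be told apart.

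*Ucp3* was 60.2%, 42.9% and 48.3% of the *Ucp3* and *Ucp2* counts in the WD mice and 69.2%, 46.1% and 48.3% in the WD + Tributyrin mice. Mouse 1 of each group stood above all others, and the other mice of the groups overlapped. The difference of the means was 4.07 percentage points (SE 8.96), with a two-sided exact permutation p of 0.6 (adjusted 0.6 over the 2 shares). Across the 6 mice, Pearson's r between *Ucp2* and *Ucp3* was -0.74 (exact permutation p = 0.0792, adjusted 0.369) and Spearman's rho was -0.49 (exact permutation p = 0.356, adjusted 0.586). Without the 2 mice farthest from the median of *Ucp2*, r was -0.56. None of the 28 pairs among the 8 genes passed 0.05 after adjustment.

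The genes whose log2 CPM followed each of these pairs most closely over the 6 mice were read from 7957 genes with a mean of at least 10 CPM, as a description. For *Acot1* they were *Smc6* (r = 0.973), *Nrd1* (0.972) and *Cmya5* (0.970), and for *Acot2* they were *Purb* (0.991), *Synpo2* (0.988) and *Exd2* (0.984). For *Ucp2* they were *Mfsd1* (r = 0.991), *Adgrg1* (0.988) and *Dll4* (0.986), and for *Ucp3* they were *Cog3* (0.991), *Slc41a3* (0.987) and *Rab3a* (0.983). The values named are the highest for each gene among the 7957 compared, over only 6 mice, and were not tested. An r above 0.9 was found with 52 genes for *Acot1*, 44 for *Acot2*, 126 for *Ucp2* and 94 for *Ucp3*.

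Of 13 other genes listed as thioesterases or their relatives, 6 were expressed highly enough to be tested. None had an unadjusted p under 0.05, 3 were higher and 3 lower, and their median log2 fold change was -0.0041. The largest positive values were those of *Acot6* (0.11) and *Them4* (0.09), and the most negative were those of *Acot4* (-0.31), a peroxisomal enzyme of the *Acot1* cluster, and *Acot8* (-0.15), which acts on many acyl-CoAs in peroxisomes. *Acot4* had 70.7, 64.4 and 58.4 normalized counts with vehicle and 52.4, 68.5 and 33.3 with Tributyrin, with overlapping groups. *Acot5*, *Them5*, *Acnat1* and *Acnat2* had 0 counts in all libraries, and *Acot10*, *Acot12* and *Baat*, of which *Acot12* and *Baat* are best known from the liver, had 4, 1 and 2 counts in all.

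Among the other mitochondrial carriers linked to proton leak, 5 of 6 were tested, 3 were higher and 2 lower, and none had an unadjusted p under 0.05 (median log2 fold change 0.07). *Slc25a4*, the adenine nucleotide carrier of heart muscle, had 131210, 131010 and 126966 normalized counts with vehicle and 141059, 126808 and 157147 with Tributyrin, a log2 fold change of 0.13 (SE 0.085, unadjusted p = 0.162 by edgeR). *Slc25a27* had 0.09, *Slc25a14* -0.09 and *Slc25a30* -0.10. *Ucp1* had 0 counts in every library, which leaves *Ucp2* and *Ucp3* as its close relatives with counts in these libraries.

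Genes known to respond to fatty acids through the same receptors gave a wider frame for *Acot1* and *Ucp3*. Of 26 such genes 25 were tested, and 23 were higher and 2 lower with Tributyrin, against 7012 higher of all 14133 genes tested. The median log2 fold change of the 25 was 0.13, against -0.0013 over all genes. None passed an FDR of 10%. An unadjusted p under 0.05 was reached by 7 of the 25, all higher, against 1.97% of all genes tested that were higher with such a p, and 8 had groups that did not overlap, all higher, against 4.26%. The counts depended on scaling and on single mice, as did those over all genes tested. With libraries scaled by their size alone, 19 of the 25 were higher and 1 had an unadjusted p under 0.05. Of all 14133 genes, 100 were then higher with such a p. The median was then 0.05, while that of all genes was -0.07. Leaving out 1 mouse gave 1 to 10 genes with an unadjusted p under 0.05 by edgeR, all higher. There was 1 without vehicle mouse 3, when 169 of all 14496 genes were higher with such a p. There were 10 without WD + Tributyrin mouse 2 (670 of 14225), 2 without WD + Tributyrin mouse 1 (268 of 14270) and 3 without vehicle mouse 2 (157 of 14208). Without the vehicle libraries with atrial transcripts, 23 of the 25 were higher, with a median of 0.20. The list had been seen in earlier results of these data, so its direction is not independent evidence. The mitochondrial share and the cardiomyocyte markers given above, 9 of 12 of them higher with Tributyrin, also differed between libraries, and their part in these values was not tested.

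The value of *Acot1* (0.46) lay close to that of the highest of these genes. *Angptl4*, a secreted inhibitor of lipoprotein lipase, had 168, 278 and 174 normalized counts with vehicle and 295, 218 and 375 with Tributyrin, with overlapping groups and a log2 fold change of 0.50 (SE 0.23, unadjusted p = 0.0524 by edgeR). Genes with an unadjusted p under 0.05 by edgeR included *Acaa2* (0.24), *Ech1* (0.20), *Decr1* (0.18) and *Acadl* (0.16) of mitochondrial β-oxidation, the fatty acid transporter *Slc27a1* (0.22) and the lipoprotein lipase gene *Lpl* (0.17). Their differences are smaller than that of *Acot1*, and so was their CV over all 6 mice, which also takes in the group difference. It ran from 6.74% for *Acadl* to 11.9% for *Slc27a1*, against 24.9% for *Acot1* and 26.1% for *Ucp3*. The lowest values were those of *Cpt1b* (-0.16) and *Cpt1a* (-0.06), which bring long-chain acyl groups into mitochondria. The count of *Cpt1b* is uncertain, since 81.4% of its exonic bases also belong to the overlapping gene *Gm44502* on the same strand.

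**Figure D5:**
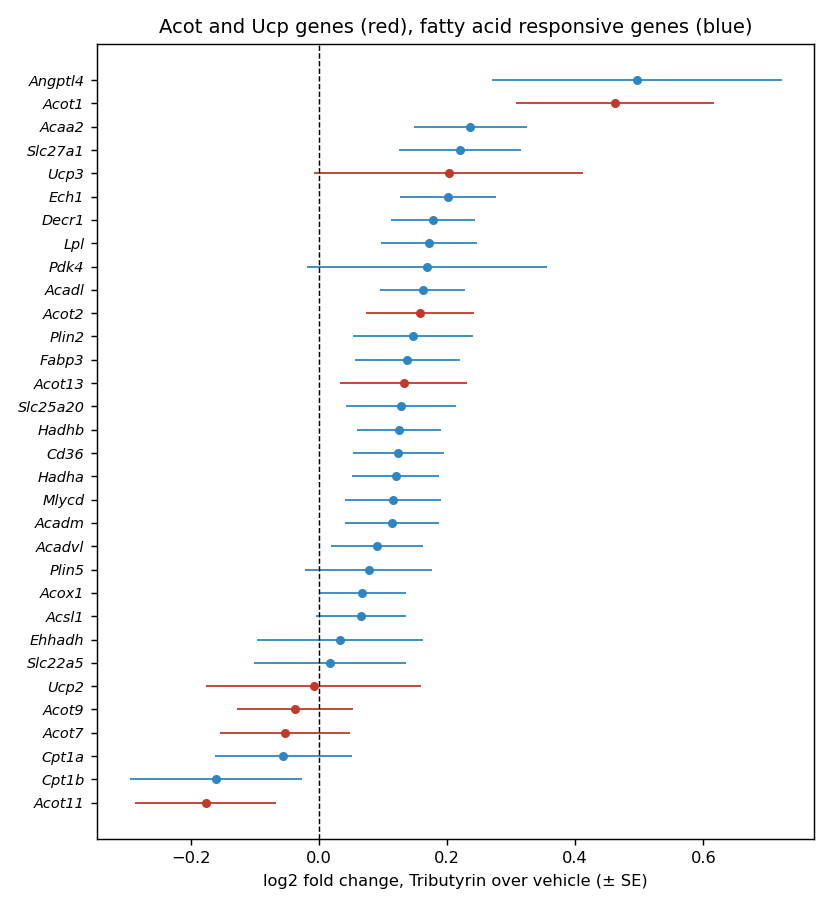
Log2 fold change, WD + Tributyrin over WD (x axis, bars ± SE), of the 8 thioesterase and uncoupling protein genes (red) and of 24 fatty acid responsive genes (blue), sorted by value. *Angptl4* (0.50) and *Acot1* (0.46) are at the top, and *Cpt1b* (-0.16) and *Acot11* (-0.18) at the bottom.

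The receptors and coactivators of these genes gave values on both sides of 0. Of 10 tested, 5 were higher and 5 lower, none with an unadjusted p under 0.05, and the median log2 fold change was 0.0014. *Pparg* (0.23) and *Ppargc1a* (0.12) had the highest values and *Ppargc1b* (-0.29) and *Ppara* (-0.08) the lowest. *Ppara*, which encodes PPARα, had 1204, 1343 and 1452 normalized counts with vehicle and 1263, 1371 and 1139 with Tributyrin, a range in which the groups overlapped (95% interval of the log2 fold change -0.29 to 0.13).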

How the data were processed

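Heart ventricle RNA of 3 WD + Tributyrin and 3 WD mice was sequenced from a stranded mRNA kit in single-end reads. The values are whole-number counts per Ensembl gene that the authors deposited without normalization. Submitters' processing notes name cutadapt 1.13, STAR, HTSeq 0.6.1p1, DESeq2 1.14.1 and the mm10 build, and the paper's methods describe filtering of poor and rRNA reads. The sources used here give neither the annotation release nor the strand option of HTSeq. Gene names, positions and exonic lengths came from GENCODE M21 (GRCm38), to which 54165 of 54232 identifiers matched, and start regions from RefSeq (GRCm38.p6). Lines that name no gene numbered 0.

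Groups were compared with edgeR 4.0.16 in R 4.3.3 (quasi-likelihood test, TMM scaling, filterByExpr at its minimum count 10 and minimum total 15, Benjamini-Hochberg adjustment over 14133 genes). For normalized counts, each library was divided by its DESeq2 1.42.0 size factor. SE is the absolute log2 fold change over the square root of F. Two-sided exact permutation tests over mice were used for shares and correlations (Python 3.11.15). The depth of 20369746 to 32734485 counts per library sets the counting error given. No libraries agreed within sampling noise, as chi-square per degree of freedom was at least 6.67 for each pair. The labels give no pairing of mice by replicate number, and the main fit used none. Deviations of mice of the same number correlated with 0.21, 0.04 and 0.01. For mice of different numbers the values ran from -0.19 to 0.15, so these few correlations cannot decide whether the numbers pair mice.

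The 8 genes and the gene lists were chosen with earlier results of these data known. Named are all 8, and of each list the genes with an unadjusted p under 0.05 and the 2 highest and 2 lowest. For *Acot1*, *Acot2*, *Ucp2* and *Ucp3* the 3 most correlated genes are named. Other genes were named for a check of cell types, sex or overlap. Alternatives were other scalings (size factors of the DESeq2 type, library size alone), no mitochondrial genes, no filter, a mean CPM of at least 5, DESeq2, limma-voom 3.58.1, a replicate block, summed *Acot* counts, shares per length and leaving out each mouse. Leaving out the libraries with atrial or adipocyte transcripts was chosen after seeing the data. The edgeR step was tested on simulated data. A result for 1 listed gene is not reported here. Labels name the mice as separate samples of a group.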

Additional observations from a re-analysis of the deposited data

How the results depend on the processing

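Of the 8 genes, only *Acot1* was past an FDR of 10% under any alternative, and only without the filter on low counts (log2 fold change 0.47). The number of genes past 10% was 167 without the filter, 11 with DESeq2, 2 with the replicate block, 2 without both libraries with adipocyte transcripts and 0 to 3 when leaving out a mouse. Genes with an unadjusted p under 0.05 numbered 1178 without the filter, 367 at a mean CPM of at least 5, 396 without the libraries with atrial transcripts, 953 without those with adipocyte transcripts and 389 to 1360 when leaving out a mouse. With library size alone 100 of 798 such genes were higher, against 278 of 600.

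Directions turned for genes near 0. Leaving out a mouse gave -0.119 to 0.0477 for *Acot7*, -0.0718 to 0.0139 for *Acot9*, -0.124 to 0.203 for *Ucp2* and -0.0206 to 0.486 for *Ucp3*, and the *Ucp3* share then ranged from -3.26 to 8.94 percentage points. *Acot7* was 0.11 without the adipocyte libraries and *Ucp2* 0.0593 without the atrial ones. *Acot1*, *Acot2*, *Acot13* and *Acot11* kept their sign under every alternative run, with *Acot1* at 0.27 to 0.61 when leaving out a mouse. Medians ranged over left-out mice from -0.117 to 0.0645 (other thioesterases), -0.0475 to 0.12 (carriers) and -0.0445 to 0.038 (regulators). With library size alone they were 0.0538 (fatty acid responsive genes) and -0.0714 (regulators), and without the atrial libraries 0.202 for the fatty acid responsive genes. Library size alone, under which the median of all genes was -0.0736, gave 0.40 for *Acot1*, 0.09 for *Acot2*, 0.06 for *Acot13*, 0.14 for *Ucp3*, -0.08 for *Ucp2*, -0.13 for *Acot7*, -0.11 for *Acot9* and -0.25 for *Acot11*, the last with an unadjusted p of 0.0448 by edgeR. The cause was not tested.

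With the replicate number as a block, *Acot1* was 0.45 (unadjusted p = 0.00438 by edgeR) and *Ucp3* 0.21 (unadjusted p = 0.0173), and it changed no call among the 8 genes.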
